A study of Mus musculus with 18 samples.

Results

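Interferon-stimulated genes are the antiviral and immune genes that cells switch on after an interferon has bound its receptor. Type I interferons act through the receptor pair Ifnar1 and Ifnar2, and interferon gamma through Ifngr1 and Ifngr2. Janus kinases at the receptor phosphorylate STAT proteins. After type I interferon, a complex that holds Stat2 and Irf9 binds the interferon-stimulated response element, whereas signalling by interferon gamma ends at the gamma-activated site. In liver, hepatocytes, Kupffer cells and endothelium all carry interferon receptors, and the genes hold a resting level of expression without infection. The set described here holds 37 such genes, chosen by name, and all 37 were found among the 47729 gene identifiers of the table by pairing Ensembl identifiers with GENCODE vM21 symbols.

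The study measured liver RNA by sequencing in mice after ischemia-reperfusion (IR), in which the blood supply of the liver is interrupted and then restored, and in mice after sham surgery. The labels give 3 genotypes, Il22-/-, Il22bp-/- and Wt, with 3 samples of each genotype in either kind of surgery. Il22 encodes interleukin 22, a cytokine that acts on hepatocytes and other epithelial cells, and Il22bp encodes a soluble receptor that binds it. The sources used here name no strain, age, sex, or time of ischemia or reperfusion. The table holds 9 columns headed IR and 9 headed W. W was read as sham by elimination, because 9 sham samples match it in number while the labels count 6 wild type samples. No header carries a genotype, so each group mixes livers with and without Il22 or its binding protein, and the spread within a group includes any difference between genotypes. Libraries are called IR1 to IR9 and W1 to W9 after their headers. Nothing ties a header to a named mouse, and p-values measure the spread between these libraries. Values are gene counts divided by size factors by the authors (normalized counts).

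Total reads over genes were 10176617 to 12558179 in IR libraries and 10716890 to 12763837 in sham libraries. Log2 values of all genes tested correlated at 0.895 to 0.980 between IR libraries and at 0.967 to 0.989 between sham libraries. The hepatocyte transcript Alb took 2.86% to 7.48% of the total in IR livers and 12.9% to 15.9% in sham livers, and the 11 of 12 listed hepatocyte markers that were found by symbol all passed the filter. Of 12686 genes with a mean normalized count of at least 10 over the 18 libraries, limma with Benjamini-Hochberg adjustment called 4860 higher and 4781 lower in IR livers at an adjusted p under 0.05. Of all calls, 50.4% were higher, and 61.7% were higher after scaling to equal totals.

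More of the 37 genes were lower than higher after ischemia-reperfusion. In IR livers against sham livers 6 were called higher (38.3% of all genes tested were), 22 were called lower (37.7% of all genes were) and 9 did not pass the test. The guanylate-binding proteins, the IFIT proteins, Isg15 with its protease Usp18, and the immunity-related GTPases held 13 of the 22 lower genes and none of the higher ones. The higher genes were the transcription factors Stat2 and Irf9, the oligoadenylate synthetase family members Oas2 and Oasl1, and the antiviral effectors Rsad2 and Mx2. The median log2 difference over the 37 genes was -0.70, with a range of -2.54 (Gbp7) to 1.23 (Stat2), and the median over all genes tested was 0.016. With a log2 difference of at least 1 in size, 4 of the 37 were called higher and 15 lower, where the shares over all genes were 15.6% and 17.0%. In 2 of the 37 all 9 IR values lay above all 9 sham values, and in 8 all lay below, where the shares over all genes were 19.9% and 20.3%. Scaling to equal totals gave a median log2 difference over all genes of 0.252 in place of 0.016, and left 7 members higher and 20 lower. Under that scaling 5951 of all 12686 genes were called higher and 3695 lower. The filter was set on the mean over both groups, and Tgtp1, at 8.66 in IR livers, passed it through its sham level.

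**Figure D1:**
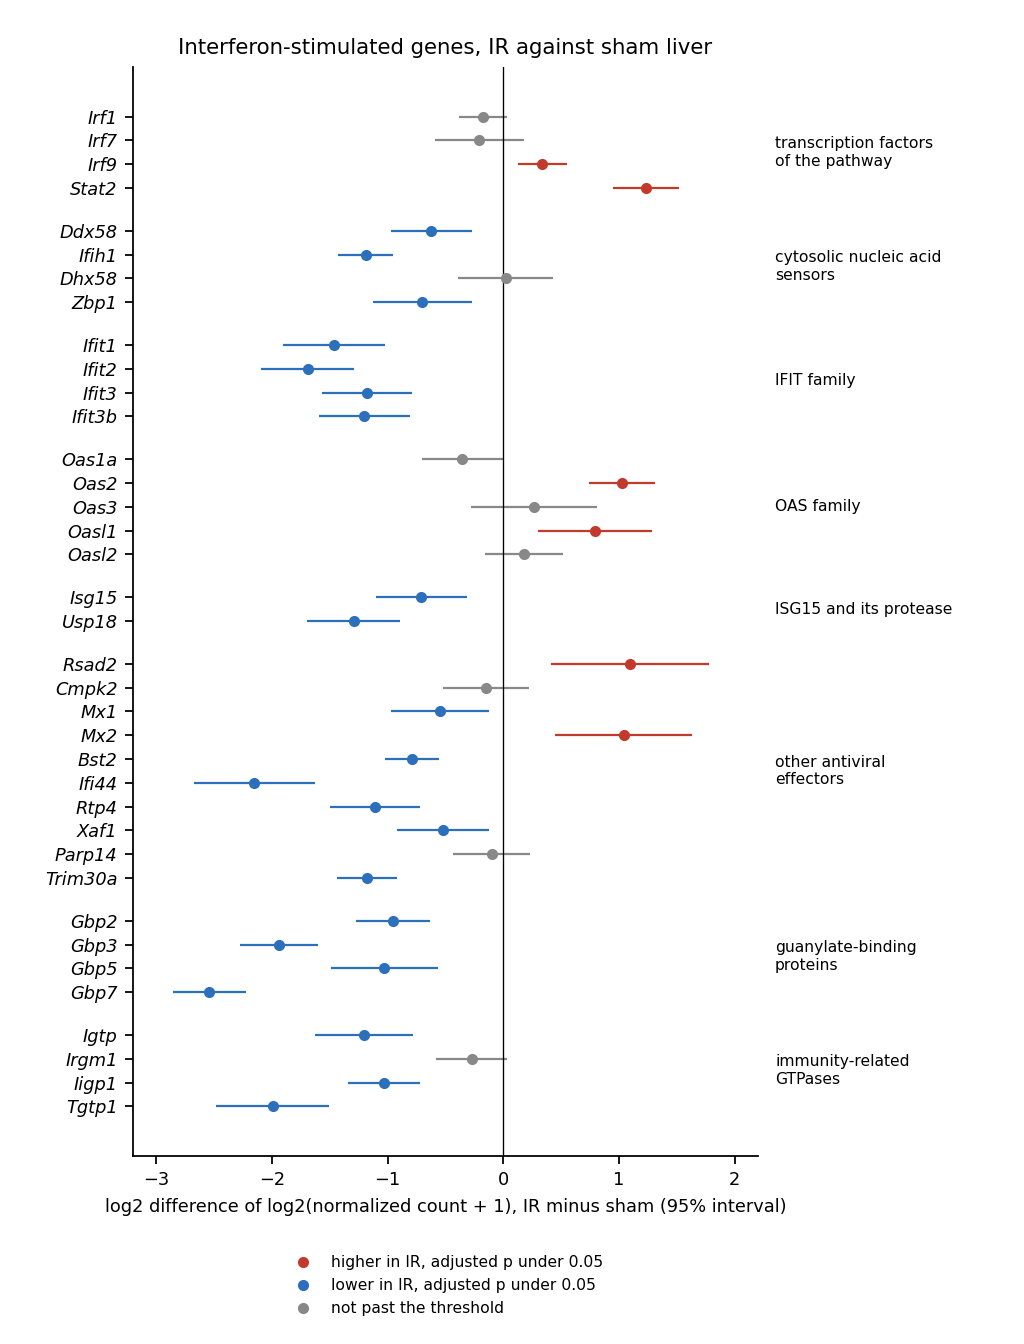
Log2 difference of log2(normalized count + 1), IR minus sham, for each of the 37 genes by role, with its 95% interval from limma over 9 IR and 9 sham libraries. Of the 37, 6 lie to the right of 0 and 22 to the left past the threshold, and the 4 guanylate-binding proteins and 4 IFIT genes all lie to the left.

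A longer list of 71 other interferon-stimulated genes, which shares no gene with the 37, had a median log2 difference of -0.66, with 17 called higher, 42 lower and 12 not passing the test, where 38.3% and 37.7% of all genes were called. In that list all IR values lay above all sham values for 7 genes and below for 20, where the shares over all genes were 19.9% and 20.3%. The list was chosen with earlier results of these data known, so it is not an independent check. Of the 71, 2 passed the filter through their IR level alone and 5 through their sham level alone, and the counts include them. Tgtp2 and Oas1g in the list share sequence with the members Tgtp1 and Oas1a.

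**Figure D2:**
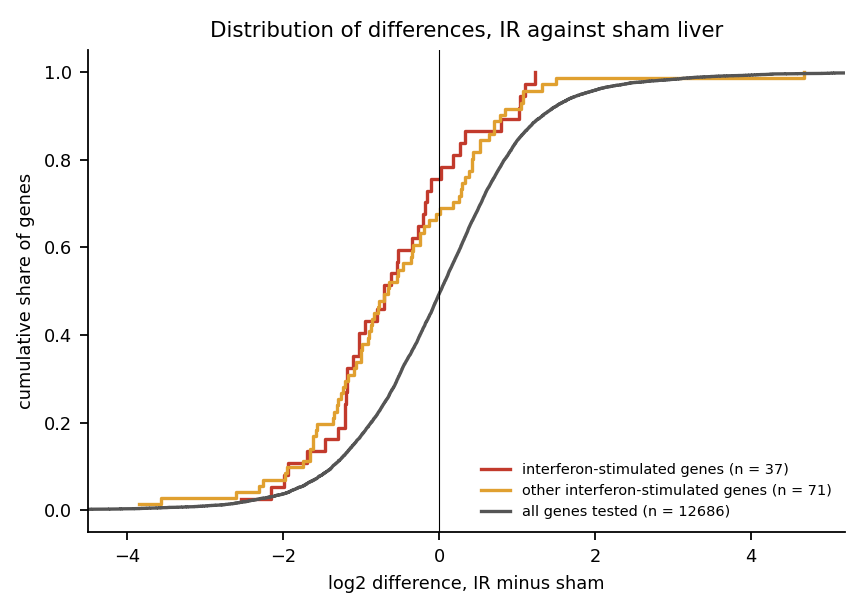
Cumulative share of genes (vertical axis) up to each log2 difference, IR minus sham (horizontal axis), for the 37 genes, for 71 other interferon-stimulated genes and for all 12686 genes tested. Both lists of interferon-stimulated genes run to the left of the curve of all genes over most of the range, with medians of -0.70 and -0.66 against 0.016.

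Many promoters of the set hold the core letters of the element that the complex of Stat2 and Irf9 binds, and stretches of 8 are printed to show it in genes that were lower and in genes that were higher in IR livers. RefSeq start site windows on GRCm38.p6, from 250 bases before to 50 bases after the start, were at hand for 28 of the 37 genes, in 33 windows. The core GAAANNGAA of the response element, searched on both strands, was in 20 of the 28 genes (71.4%), and in 9.76% of 27025 genes with a window. By window the shares were 63.6% of 33 and 8.56% of 32851. The core followed by one more A was in 67.9% of the 28 genes and 3.99% of all. The core TTCNNNGAA of the gamma-activated site, which reads the same on both strands, was in 28.6% of the 28 genes and 9.55% of all. The response element core was in 15 of 17 matched genes that were lower in IR livers, in 2 of 4 that were higher and in 3 of 7 that did not pass the test. These matches describe letters in a window, and were not tested for binding. Each stretch below is read 5′ to 3′ on the strand of its gene, and capitals mark every match to either core.
Isg15 promoter stretch, chr4:156200856-156200916, minus strand: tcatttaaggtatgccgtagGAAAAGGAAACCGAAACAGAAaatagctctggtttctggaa
Ifit1 promoter stretch, chr19:34640760-34640833, plus strand: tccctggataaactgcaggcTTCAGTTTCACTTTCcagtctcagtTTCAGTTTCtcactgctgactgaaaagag
Ifit3 promoter stretch, chr19:34583354-34583455, plus strand: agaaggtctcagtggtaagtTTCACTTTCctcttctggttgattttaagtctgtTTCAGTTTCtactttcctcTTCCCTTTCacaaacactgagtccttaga
Gbp3 promoter stretch, chr3:142559980-142560034, plus strand: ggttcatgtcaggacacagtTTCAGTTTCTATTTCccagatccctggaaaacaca
Gbp7 promoter stretch, chr3:142530210-142530312, plus strand: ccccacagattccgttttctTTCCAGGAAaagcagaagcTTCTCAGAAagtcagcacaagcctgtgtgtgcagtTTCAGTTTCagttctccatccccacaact
Tgtp1 promoter stretch, chr11:48992295-48992354, minus strand: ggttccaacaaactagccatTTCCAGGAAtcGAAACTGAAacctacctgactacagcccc
Stat2 promoter stretch, chr10:128270257-128270305, plus strand: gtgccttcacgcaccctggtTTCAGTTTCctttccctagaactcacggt
Rsad2 promoter stretch, chr12:26456543-26456591, minus strand: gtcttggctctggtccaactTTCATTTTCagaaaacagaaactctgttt
In Isg15 3 overlapping matches to the response element core form 1 run, the first of them beginning 78 bases before the start site. The Gbp7 stretch holds 2 matches to the gamma-activated site core upstream of its response element core, and the Tgtp1 stretch holds 1 of each. The matches in Stat2 and Rsad2, both higher in IR livers, lie 221 and 119 bases before the start. The Ifit3 stretch of 102 bases is identical in Ifit3b.

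Of the 4 transcription factors in the set, Stat2 and Irf9 were higher in IR livers and Irf1 and Irf7 did not pass the test. Stat2 (chr10:128270559-128292849, plus strand), a part of the complex that binds the response element, had lowest, median and highest normalized counts of 612, 1284 and 1398 in IR livers, against 414, 466 and 603 in sham livers. The groups did not overlap, and IR8 was the lowest IR library. Its log2 difference was 1.23 (SE 0.14, limma adjusted p = 7.64e-08). Irf9, the DNA-binding part of that complex, had 388, 517 and 733 in IR livers, against 384, 398 and 469 in sham livers. In 5 of 9 IR libraries it was above every sham library, and the remaining libraries overlapped. Its difference was 0.34 (SE 0.10, limma adjusted p = 0.00527). Irf7, which amplifies type I interferon production, had 349.6, 580.4 and 1040.2 in IR livers, against 512, 702 and 903 in sham livers. Sham values lay within the IR range, and the difference was -0.21 (SE 0.18, limma adjusted p = 0.311). Irf1, a factor induced by interferon gamma, had 323, 399 and 508 in IR livers, against 368, 437 and 532 in sham livers, with 4 of 9 IR libraries below every sham library. Its difference was -0.18 (SE 0.10, limma adjusted p = 0.109), and without IR8 it was -0.22 with limma adjusted p = 0.0375. The highest Irf1 difference with 1 library left out was -0.14 (limma adjusted p = 0.201). Scaling to equal totals gave 0.06 for Irf1 (limma adjusted p = 0.556).

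Of the 4 cytosolic nucleic acid sensors, 3 were lower in IR livers. Ifih1 (chr2:62595798-62646255, minus strand), which encodes the long double-stranded RNA sensor MDA5, had 155, 245 and 315 in IR livers, against 479, 528 and 614 in sham livers. Every IR value was below every sham value. The log2 difference of Ifih1 was -1.19 (SE 0.11, limma adjusted p = 8e-09). Ddx58, which encodes the RNA sensor RIG-I, averaged 267 ± 81.7 in IR livers and 395 ± 55.7 in sham livers (SD, n = 9 libraries each), a difference of -0.62 (SE 0.17, limma adjusted p = 0.00246). Zbp1, a sensor of left-handed nucleic acids tied to cell death, averaged 250.2 ± 109 in IR livers and 375 ± 43.6 in sham livers, a difference of -0.70 (SE 0.20, limma adjusted p = 0.00422). Both overlapped between groups, with 5 and 6 of the 9 IR libraries below every sham library. Dhx58, which encodes LGP2, a regulator of the other RNA sensors, had 53.3, 125 and 222 in IR livers, against 96.5, 115 and 149 in sham livers. Its IR values lay on both sides of the sham range, and the difference was 0.02 (SE 0.20, limma adjusted p = 0.93).

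All 4 IFIT genes, whose proteins bind viral RNA and hold back its translation, were lower in IR livers. Ifit1 (chr19:34640871-34650009, plus strand) had 72.2, 156 and 270.0 in IR livers, against 337, 392 and 527 in sham livers. No IR library came up to the lowest sham library. For Ifit1 the log2 difference was -1.46 (SE 0.21, limma adjusted p = 2.78e-06). Ifit2, the lowest of the family by difference, had 36.6, 42.9 and 125 in IR livers, against 112, 180.2 and 201 in sham livers. IR5 was the single IR library within the sham range, and the difference was -1.69 (SE 0.19, limma adjusted p = 1.18e-07). Ifit3 had 65.6, 119.5 and 248 in IR livers, against 206, 257 and 341 in sham livers, again with 8 of 9 IR libraries below every sham library and IR5 within the range. Its difference was -1.18 (SE 0.19, limma adjusted p = 9.57e-06). Ifit3b averaged 26.4 ± 9.93 in IR livers and 59.8 ± 11.6 in sham livers, a difference of -1.20 (SE 0.19, limma adjusted p = 7.88e-06). Of the 50-base words in Ifit3 exons 51.2% also occur in Ifit3b, so reads could be split between this pair, and the 2 values are not independent.

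The OAS family, whose members make or resemble the synthetases of the messenger 2′-5′-oligoadenylate, had 2 members higher in IR livers, none lower and 3 that did not pass the test. Over all genes 38.3% were called higher and 37.7% lower, so the higher count lay near its share. Oas2 (chr5:120730333-120749853, minus strand) had 63.8, 83.8 and 127 in IR livers, against 31.8, 42.6 and 49.7 in sham livers. Each IR library was above all sham libraries. This was a log2 difference of 1.03 (SE 0.14, limma adjusted p = 9.09e-07). Oasl1, a family member without synthetase activity that represses Irf7 translation in mice, averaged 319 ± 163 in IR livers and 169.6 ± 37.8 in sham livers, a difference of 0.79 (SE 0.24, limma adjusted p = 0.00484). In 7 of 9 IR libraries it was above every sham library. Oas1a had 27.2, 61.1 and 74.6 in IR livers, against 51.8, 68.4 and 84.3 in sham livers, and 4 of 9 IR libraries were below every sham library. Its difference was -0.35 (SE 0.17, limma adjusted p = 0.0622), and its limma adjusted p was 0.0347 without IR2, 0.0407 without IR4, 0.0326 without IR5 and 0.0410 without W9. For Oas1a the highest difference with 1 library left out was -0.24 (limma adjusted p = 0.127). Scaling to equal totals gave -0.12 for Oas1a (limma adjusted p = 0.579). Of its 50-base words 57.6% also occur in Oas1g, so reads could be split. Oas3 averaged 41.9 ± 21.2 in IR livers and 32.0 ± 8.58 in sham livers, and Oasl2 averaged 124 ± 41.6 in IR livers and 105 ± 11.9 in sham livers. Neither passed the test, with differences of 0.27 (SE 0.26, limma adjusted p = 0.362) and 0.18 (SE 0.16, limma adjusted p = 0.329).

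Isg15, a ubiquitin-like protein that is coupled to target proteins and also secreted, and Usp18, the protease that removes it and blocks signalling at the type I receptor, were both lower in IR livers. Isg15 (chr4:156199424-156200818, minus strand) had 83.3, 176 and 308 in IR livers, against 199.7, 285 and 344 in sham livers. The groups overlapped, with 7 of 9 IR libraries below every sham library and IR2 the highest. The log2 difference for Isg15 was -0.71 (SE 0.19, limma adjusted p = 0.00196). Usp18 had 49.8, 101 and 243 in IR livers, against 226, 257 and 303 in sham livers. All IR libraries other than IR2 lay below every sham library, and the difference was -1.29 (SE 0.19, limma adjusted p = 4.83e-06).

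Among the 10 other antiviral effectors, 2 were higher, 6 were lower and 2 did not pass the test. Rsad2 (chr12:26442746-26456452, minus strand), which encodes viperin, an enzyme that makes a chain-terminating nucleotide, had 106, 367 and 1051 in IR livers, against 106, 155 and 222 in sham livers. In 6 of 9 IR libraries it was above every sham library, IR5 was the highest, and IR3 was below the sham range. Its log2 difference was 1.10 (SE 0.33, limma adjusted p = 0.00481), and without IR5 the difference was 0.89. Cmpk2, the nucleotide kinase encoded beside Rsad2, averaged 101 ± 34.9 in IR livers and 108 ± 18.1 in sham livers and did not pass the test, with a difference of -0.15 (SE 0.18, limma adjusted p = 0.445). Mx2, an antiviral GTPase gene that the annotation classes as a polymorphic pseudogene, had 63.6, 127 and 572 in IR livers, against 42.8, 71.0 and 79.7 in sham livers. IR5 stood far above the rest, and 8 of 9 IR libraries, IR5 among them, were above every sham library. Its difference was 1.04 (SE 0.28, limma adjusted p = 0.00251), and without IR5 it was 0.78.

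Ifi44 (chr3:151730922-151749960, minus strand), an interferon-induced cytoplasmic protein, had 15.6, 26.8 and 97.2 in IR livers, against 117, 128 and 174 in sham livers. All IR libraries stayed below the sham range, and IR2 was the highest IR library. Its log2 difference was -2.15 (SE 0.25, limma adjusted p = 1.52e-07), the lowest among the effectors. Bst2 (chr8:71534255-71537456, minus strand), which encodes tetherin, a membrane protein that holds budding virus at the cell surface, had 1302, 1559 and 2391 in IR livers, against 2513, 2968 and 3517 in sham livers. No IR library reached the sham range, and the difference was -0.79 (SE 0.11, limma adjusted p = 2.2e-06). Trim30a (chr7:104409025-104465193, minus strand), a TRIM family protein that dampens Toll-like receptor signalling in mice, had 63.3, 81.8 and 114 in IR livers, against 146, 203 and 223 in sham livers. Here too there was no overlap, and the difference was -1.17 (SE 0.12, limma adjusted p = 4.28e-08). Rtp4, a negative regulator of interferon responses in mice, averaged 206 ± 94.7 in IR livers and 417 ± 59.1 in sham livers, a difference of -1.10 (SE 0.19, limma adjusted p = 2.04e-05). IR2 was the single IR library within its sham range. Mx1, an antiviral GTPase related to Mx2, averaged 24.8 ± 8.0 in IR livers and 35.9 ± 9.47 in sham livers, and Xaf1, a cell death factor, averaged 74.2 ± 29.2 in IR livers and 101 ± 15.1 in sham livers. Both were lower by smaller amounts, with differences of -0.54 (SE 0.20, limma adjusted p = 0.0203) and -0.52 (SE 0.19, limma adjusted p = 0.0171). After scaling to equal totals neither passed the test, with limma adjusted p = 0.208 for Mx1 and 0.152 for Xaf1, and edgeR on reads without W1 gave adjusted p = 0.0538 for Xaf1. Parp14, an ADP-ribosyltransferase, averaged 355 ± 112 in IR livers and 373 ± 72.1 in sham livers and did not pass the test, with a difference of -0.10 (SE 0.16, limma adjusted p = 0.576). Rtp4 shares 11.6% of its 50-base words with the overlapping model Gm45338.

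The guanylate-binding proteins, GTPases induced most strongly by interferon gamma that attack the vacuoles of intracellular microbes, were lower in IR livers in 4 of 4 members. Gbp7 (chr3:142530342-142550149, plus strand) had 37.2, 61.5 and 86.2 in IR livers, against 287, 380.5 and 427 in sham livers. The highest IR value was well below the lowest sham value. Its log2 difference was -2.54 (SE 0.15, limma adjusted p = 1.17e-11), the lowest of the 37. Gbp3 (chr3:142560026-142573209, plus strand) had 68.7, 89.3 and 150.0 in IR livers, against 247, 348 and 442 in sham livers. These groups did not overlap. Its difference was -1.94 (SE 0.16, limma adjusted p = 1.33e-09). Gbp2 had 64.6, 101 and 152 in IR livers, against 148, 195 and 243 in sham livers, with IR5 alone reaching the sham range. Its difference was -0.95 (SE 0.15, limma adjusted p = 1.05e-05). Gbp5, on 12 to 43 reads per IR library and 18 to 46 per sham library, averaged 18.5 ± 8.14 in IR livers and 37.7 ± 10.3 in sham livers, a difference of -1.03 (SE 0.22, limma adjusted p = 0.000287). In Gbp7 10.5% of the 50-base words also occur in the overlapping model Gm43802.

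Of the 4 immunity-related GTPases, a family that acts on the same vacuoles in mice, 3 were lower in IR livers. Tgtp1 (chr11:48985327-48994172, minus strand) had 4.47, 9.41 and 17.9 in IR livers, against 25.2, 31.2 and 55.5 in sham livers. IR and sham values were separate, on 5 to 19 reads per IR library and 23 to 50 per sham library. Its log2 difference was -1.99 (SE 0.24, limma adjusted p = 1.87e-07). Tgtp1 shares 79.4% of its 50-base words with Tgtp2, so its reads could be split or lost. Tgtp2 itself had a difference of -1.66, but it also passed the filter through its sham level alone. The 2 values are not independent. Igtp averaged 338 ± 170.0 in IR livers and 716 ± 97.6 in sham livers, a difference of -1.20 (SE 0.20, limma adjusted p = 2.1e-05), and IR2 alone was within the sham range. Iigp1, the highest of the 4 per kb of exon, averaged 3223 ± 926 in IR livers and 6494 ± 1145 in sham livers, a difference of -1.03 (SE 0.15, limma adjusted p = 2.92e-06). Irgm1, a regulator that keeps the other GTPases off host membranes, had 315, 620.1 and 889 in IR livers, against 585, 716 and 763 in sham livers. Sham values lay within the IR range, and the difference was -0.27 (SE 0.15, limma adjusted p = 0.0953). Without IR2 the Irgm1 difference was -0.35 with limma adjusted p = 0.0245.

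**Figure D3:**
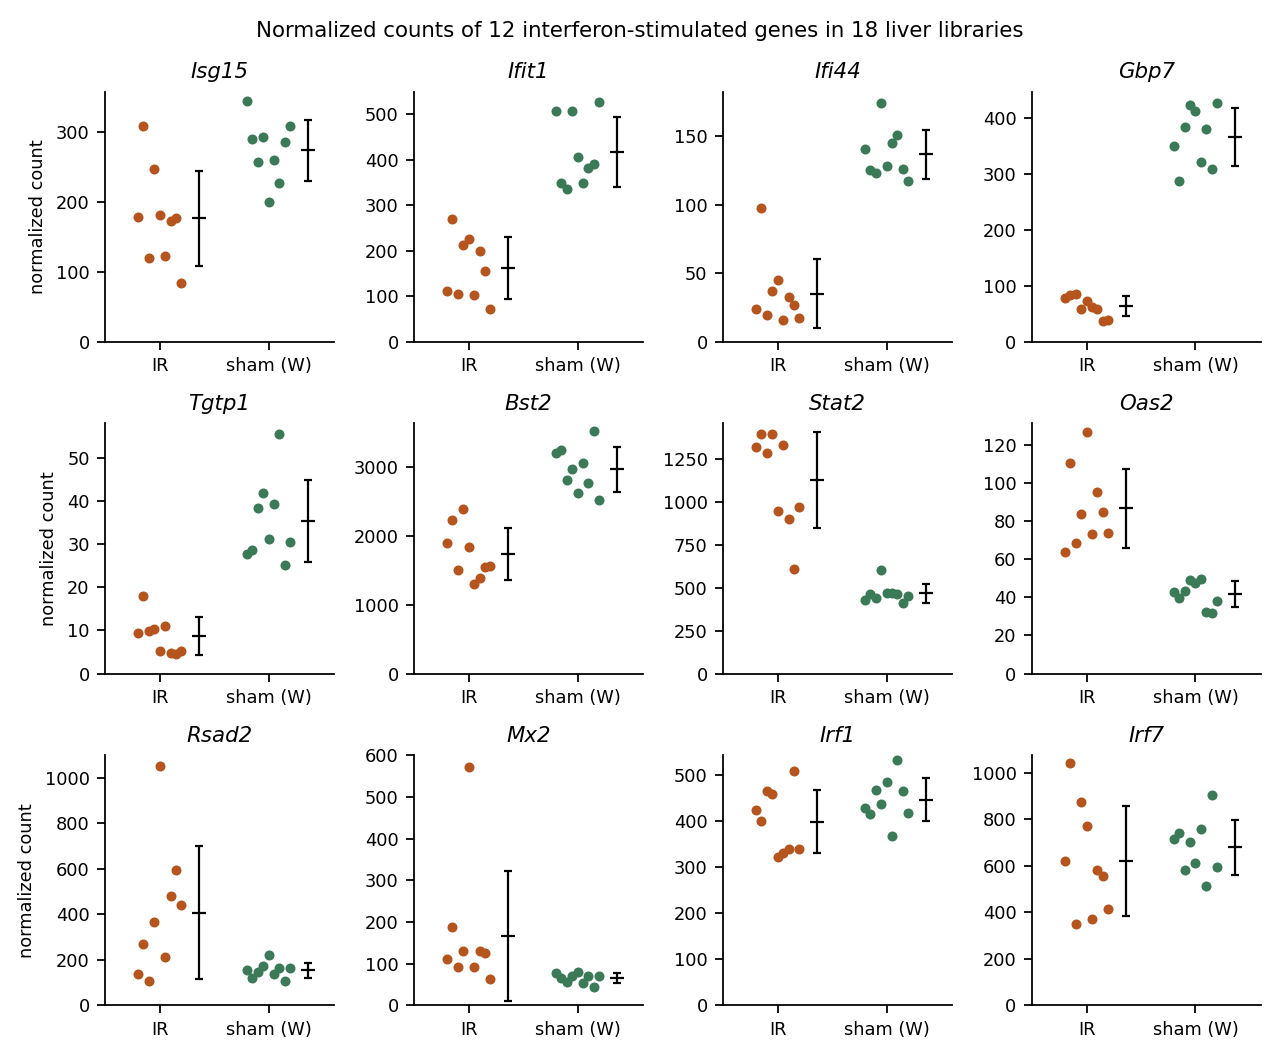
Normalized counts (vertical axes, each from 0) of 12 of the 37 genes in the 9 IR libraries, at the left of each panel, and the 9 sham libraries headed W, at the right; each point is 1 library and the bar is the mean ± SD. Ifit1, Ifi44, Gbp7, Tgtp1 and Bst2 are lower in IR livers without overlap, Stat2 and Oas2 are higher without overlap, and IR5 stands apart in Mx2 at 572 and in Rsad2 at 1051.

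Levels between genes can be compared per length of exon. Per kb of exonic sequence the mean normalized count was highest for Bst2, at 1925 in IR livers and 3283 in sham livers. Iigp1 followed, at 554 in IR livers and 1115 in sham livers, and Isg15 reached 233 in IR livers and 362 in sham livers. Near the other end, Gbp5 stood at 2.78 per kb in IR livers and 5.67 in sham livers.

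Almost no interferon transcript was read. Of 21 interferon ligand genes 18 had no read in any of the 18 libraries, among them every interferon alpha gene listed, and none reached the mean of 10 needed for the fit across genes. Ifng, which encodes interferon gamma, had 3 reads in 3 IR libraries, against 19 reads over all 9 sham libraries. The difference of mean log2(normalized count + 1) was -1.33 (exact two-sided permutation test over the 18 libraries, p = 8.23e-05). That test was added after the data were seen. Ifnb1 had 2 reads in IR libraries and 0 in sham libraries, and Ifnk had 7 reads in IR libraries and 2 in sham libraries; this pair was picked out after its values were seen. At these depths a few molecules decide each value. The summed normalized count of 13 listed markers of T, NK and B lymphocytes, among which are makers of interferon gamma, was 33.4 to 72.5 in IR livers and 176 to 286 in sham livers, and their part in the Ifng difference was not tested.

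Of 5 receptor genes in the fit, 1 was higher and 1 lower in IR livers, where 38.3% and 37.7% of all genes were. Ifnar1, the first chain of the type I receptor, had 401, 447 and 499 in IR livers, against 237, 326 and 366 in sham livers. All IR values were above all sham values, and the log2 difference was 0.50 (SE 0.08, limma adjusted p = 1.33e-05). Ifngr2, the second chain of the interferon gamma receptor, had 214, 269.7 and 387 in IR livers, against 328, 405 and 543 in sham livers. These groups overlapped, and the difference was -0.48 (SE 0.12, limma adjusted p = 0.00126). Ifnar2, Ifngr1 and Il10rb did not pass the test, with differences of -0.18, -0.15 and 0.15. Ifnlr1, the specific chain of the interferon lambda receptor, was below the filter, with lowest, median and highest values of 3.78, 7.32 and 18.2 in IR livers, against 0, 0.991 and 2.04 in sham livers. Its groups did not overlap on 77 reads in IR libraries and 6 in sham libraries (exact two-sided permutation test, p = 4.11e-05, the smallest that 9 against 9 libraries can give). Adjusted over Ifng and Ifnlr1 both exact permutation p-values were 8.23e-05. The test of these 2 genes was added after the data were seen, and the adjustment does not cover the other ligand genes.

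Of the 9 JAK-STAT transducers and other interferon regulatory factors described here, 4 were higher and 5 did not pass the test. Over all genes 38.3% were called higher. Stat3, which carries the signals of interleukin 6 and interleukin 22, had 2461, 2846 and 3843 in IR livers, against 759.7, 821 and 892 in sham livers. IR values were all above the sham range, and the log2 difference was 1.82 (SE 0.07, limma adjusted p = 8.2e-14). Tyk2, a kinase of the type I receptor, had a difference of 0.71 (SE 0.09, limma adjusted p = 8.98e-07), and Irf2, a factor that competes with Irf1, one of 0.35 (SE 0.09, limma adjusted p = 0.00187).

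Of 9 sensing adaptors and kinases tested, 5 were higher, 2 were lower and 2 did not pass the test. The shares over all genes were 38.3% higher and 37.7% lower. The higher ones were led by the kinase Ikbke at 1.31 (SE 0.11, limma adjusted p = 1.43e-09), the Toll-like receptor adaptor Myd88 at 1.23 (SE 0.09, limma adjusted p = 2.58e-10) and the adaptor of Tlr3, Ticam1, at 1.10 (SE 0.10, limma adjusted p = 4.66e-09). The lower ones were the endosomal RNA receptors Tlr7 at -0.98 (SE 0.22, limma adjusted p = 0.000421) and Tlr3 at -0.92 (SE 0.12, limma adjusted p = 1.13e-06). Of the 8 genes tested from the list of negative regulators, 7 were higher, where 38.3% of all genes were. Socs3, an inhibitor of Janus kinases downstream of interleukin 6 family receptors, had 953, 1738 and 3849 in IR livers, against 60.8, 102 and 134 in sham livers. The groups did not overlap, and the difference was 4.19 (SE 0.25, limma adjusted p = 1.23e-11). Socs1, the inhibitor that acts on both interferon receptors, had 15.7, 56.2 and 239 in IR livers, against 6.66, 13.9 and 28.5 in sham livers. Its groups overlapped, and the difference was 2.36 (SE 0.43, limma adjusted p = 4.43e-05). The third by size was the co-repressor Irf2bp2, at 1.18 (SE 0.21, limma adjusted p = 3.42e-05). Pias1, an inhibitor of STAT signalling, was the lower one of the list, at -0.50 (SE 0.08, limma adjusted p = 4.35e-06). The list leaves out members of the set that were described above as repressing, blocking or dampening signalling. Among them Usp18 (log2 difference -1.29), Trim30a (-1.17) and Rtp4 (-1.10) were lower, and Oasl1 (0.79) was higher. The count for the list therefore does not hold for all negative regulators.

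**Figure D4:**
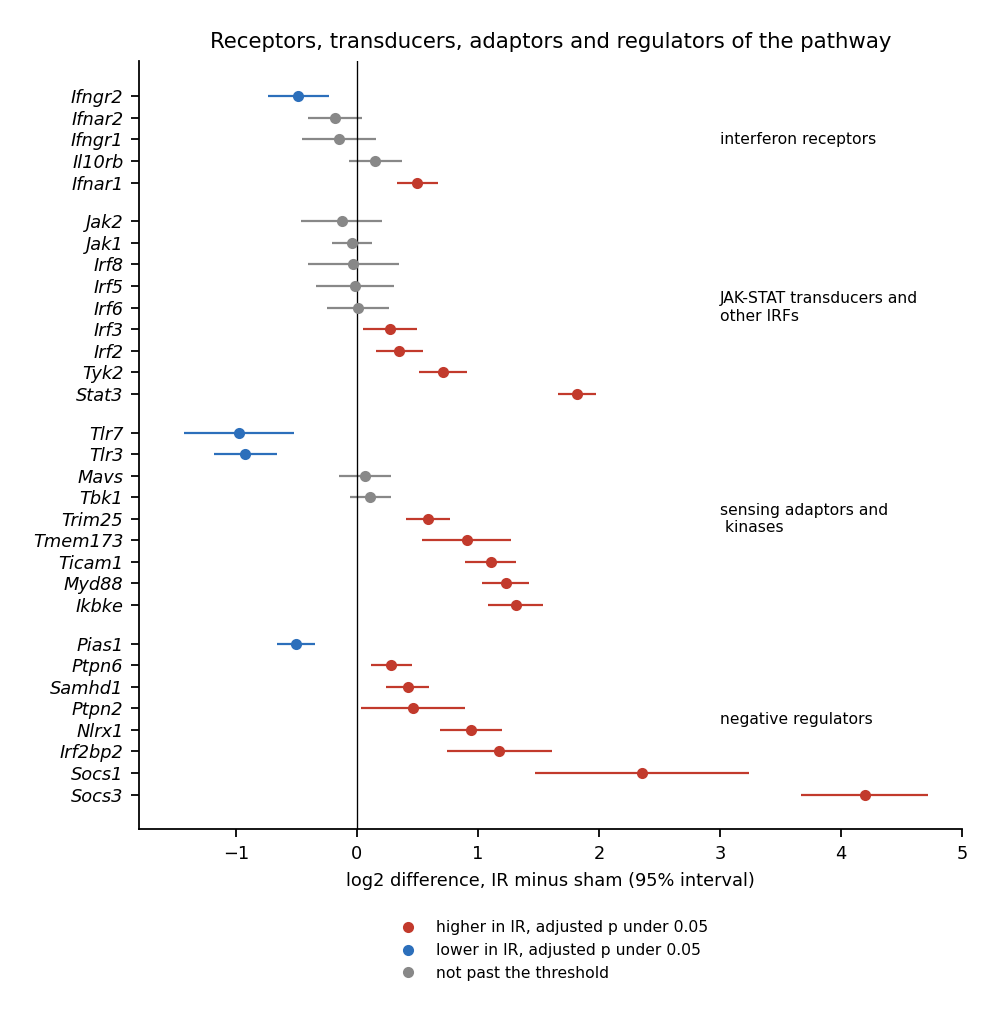
Log2 difference, IR minus sham, with its 95% interval, for receptors, JAK-STAT transducers and other interferon regulatory factors, sensing adaptors and kinases, and the listed negative regulators of the pathway (limma, 9 IR and 9 sham libraries). Socs3 at 4.19, Socs1 at 2.36 and Stat3 at 1.82 lie farthest to the right, and Tlr7 and Tlr3 farthest to the left at -0.98 and -0.92.

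In the list of 71 other interferon-stimulated genes, the lowest differences were those of Gbp10, Gbp11 and Slfn9. In that list 2 genes, Slfn4 and Sp110, passed the filter through their IR level alone, and 5, among them Gbp10 and Slfn9, through their sham level alone. Gbp10 had 1.72, 7.15 and 13.6 in IR livers, against 72.4, 106 and 161 in sham livers. Its groups did not overlap, and the log2 difference was -3.84 (SE 0.25, limma adjusted p = 2.91e-11). Gbp11 had a difference of -3.56 (SE 0.35, limma adjusted p = 1.36e-08) and Slfn9, a Schlafen family member, one of -2.60 (SE 0.27, limma adjusted p = 2.57e-08), both without overlap. The highest were Slfn4, Slfn1 and Helz2. Slfn4, a Schlafen gene of myeloid cells, had 70.1, 232 and 443 in IR livers, against 1.1, 8.39 and 14.5 in sham livers. Its groups did not overlap, and the difference was 4.68 (SE 0.39, limma adjusted p = 1.3e-09). Slfn1 had a difference of 1.50 (SE 0.35, limma adjusted p = 0.000602) with overlap, and Helz2, a helicase co-activator, one of 1.31 (SE 0.13, limma adjusted p = 1.73e-08) without overlap. The summed neutrophil markers, given with the other cell types, were higher in every IR liver than in any sham liver, and their part in the Slfn4 difference was not tested.

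The 37 genes varied more among IR livers than among sham livers. The SD of log2 values was larger in IR livers for 37 of 37 genes, and for 75.5% of all genes tested. Its median over the 37 was 0.512 in IR livers and 0.235 in sham livers, where over all genes it was 0.328 in IR livers and 0.220 in sham livers. Relative to the sham mean of each gene, the median over the 37 lay between -1.16 (IR9) and 0.05 (IR2) in IR libraries, and between -0.22 (W2) and 0.18 (W4) in sham libraries. IR2 held the highest IR value for 18 of the 37 (48.6%), and for 5.18% of all genes. IR5 held it for 13 (35.1%), and for 8.31% of all genes. IR9 held the lowest IR value for 13 (35.1%), and for 14.8% of all genes. Over the 71 other interferon-stimulated genes, IR2 was highest for 22 and IR9 lowest for 19. The role groups differed within single livers. In IR2 the median over the OAS genes was 0.75 above the sham mean while that over the guanylate-binding proteins was -1.20, and in IR8 the medians were 1.03 and -1.43. The headers give no genotype, so these differences among livers cannot be set against Il22 or Il22bp.

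**Figure D5:**
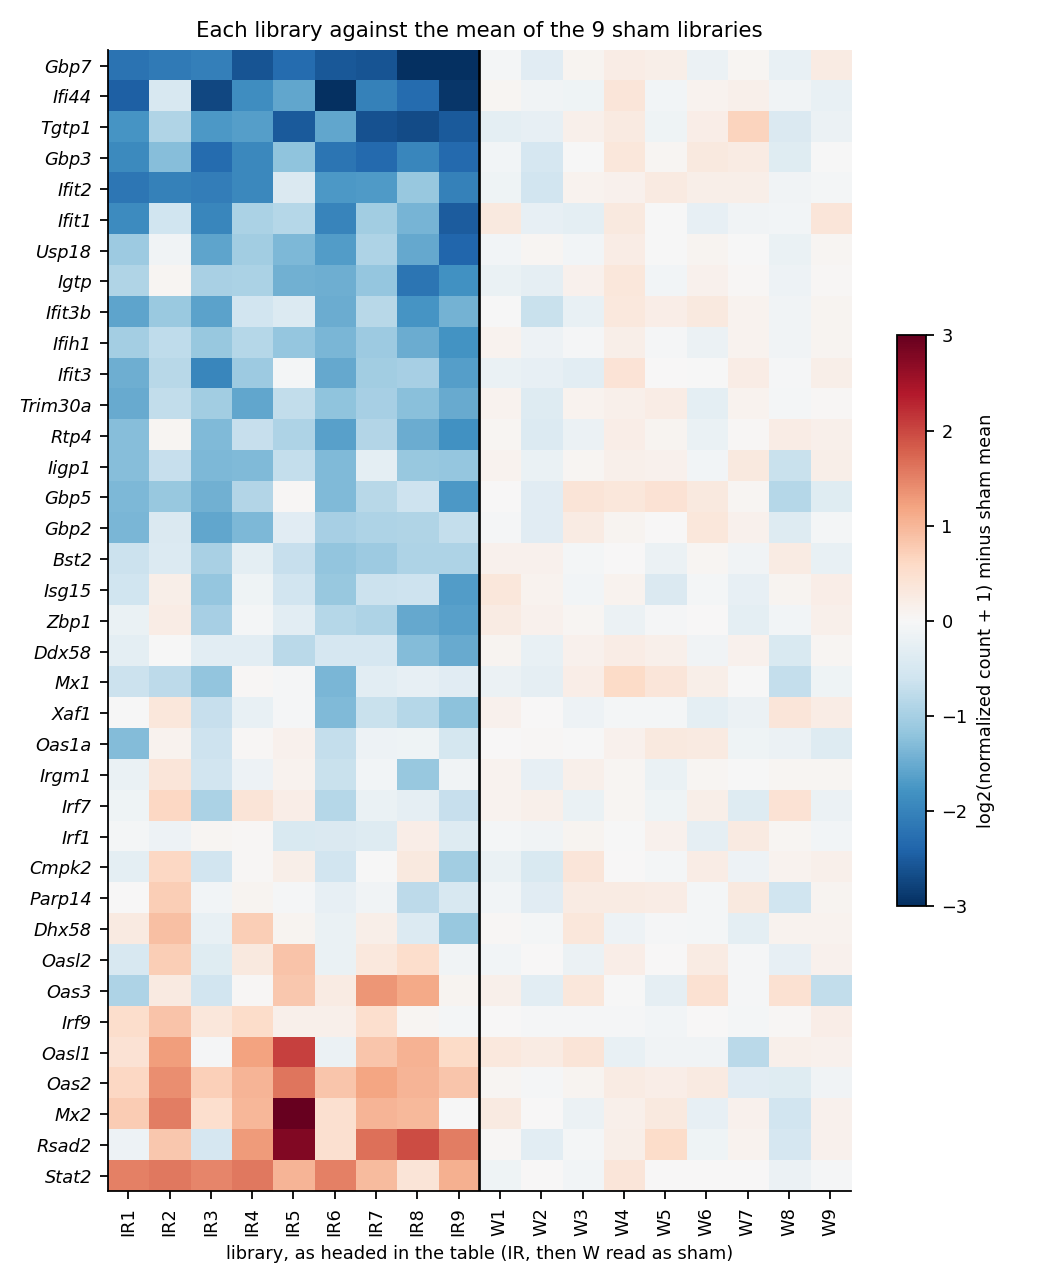
Log2(normalized count + 1) minus the mean of the 9 sham libraries for each of the 37 genes (rows, ordered by their difference) in each library (columns, IR1 to IR9 at the left and W1 to W9 at the right); the colour scale ends at -3 and 3. The rows from Gbp7 to Bst2 are blue in nearly all IR libraries, Stat2 and Oas2 are red in every one, and IR2 and IR5 are the palest of the IR columns among the lower genes.

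Markers of other cell types moved between the groups as well, and in bulk RNA fewer cells of a type and less RNA per cell cannot be told apart. The counts of marker calls below stand beside 38.3% of all genes called higher and 37.7% called lower. The summed normalized count of the 12 listed neutrophil markers was 348 to 4392 in IR livers and 61.1 to 136 in sham livers, with the highest count in S100a9. Of these, 4 were below the filter and 8 were tested and higher, but 5 of the 8 passed the filter through their IR level alone, so that this count follows in part from the filter. The 13 listed markers of T, NK and B lymphocytes, given with Ifng, had their highest count in Gzma; the 7 that were tested passed the filter through their sham level alone, and no count of calls is read from them. Of 8 Kupffer cell markers 2 were higher and 5 lower, with sums of 2881 to 4549 in IR livers and 5634 to 7638 in sham livers, the highest in Clec4f. Of 9 monocyte and macrophage markers 4 were higher, 2 of which passed the filter through their IR level alone, and 3 were lower, with sums of 1086 to 2907 in IR livers and 2545 to 3965 in sham livers, the highest in Lyz2. Of 8 sinusoidal endothelium markers 2 were higher and 5 lower, with sums of 2308 to 3263 in IR livers and 3825 to 5490.2 in sham livers, the highest in Clec4g. Of 8 stellate cell markers 3 were higher and 5 lower, with sums of 2178 to 3290.0 in IR livers and 4345 to 5152 in sham livers, the highest in Dcn. Of 11 hepatocyte markers 2 were higher and 9 lower, with sums of 858733 to 1326335 in IR livers and 2175539 to 2648338 in sham livers, the highest in Alb. Of 4 tested markers of plasmacytoid dendritic cells, a major source of type I interferon, 1 was higher and 1 lower. The sum of the 8 listed was 2315 to 4163 in IR livers and 2932 to 4116 in sham livers, with the highest count in Bst2, itself one of the 37. That sum joins opposite moves. Bst2 was the lower one, and Ly6d, the higher one, averaged 1006 ± 647 in IR livers and 56.9 ± 21.7 in sham livers (SD). No listed marker was at 0 in every library. The part of any cell type in the differences of the 37 genes was not tested.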

How the data were processed

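Liver RNA was extracted with Trizol and made into libraries with an NEBNext Ultra kit, per the labels' protocols. Per the submitters' processing notes, reads went through Trimmomatic 0.33 and STAR 2.5.0a on GRCm38, and counts through DESeq2 1.14. Nothing used here states the read counter, strand setting, annotation or filters, so reads of antisense or overlapping genes cannot be assigned. The deposited values are a signal, gene counts that the authors divided by 1 size factor per library; every value was a whole multiple of the step of 1 read in its column (within 0.001), so whole reads could be recovered. No value column was left out.

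Log2(value + 1) of 12686 genes with a mean of at least 10 was fitted with limma 3.58.1 (trend, two-sided, Benjamini-Hochberg over all genes tested, calls at adjusted p under 0.05) in R 4.3.3, all 18 libraries in 1 fit of IR against sham with no covariate. Log2 differences understate changes of low genes. edgeR 4.0.16 and DESeq2 1.42.0 on recovered reads were alternatives. The exact permutation test for Ifng and Ifnlr1, the edgeR fit without W1, the symbol families and the differences without a single named library were added after seeing the data. The members and lists were chosen with earlier results of these data known. The lowest, median and highest value of each group are given for some members. These are the highest and lowest gene of each role, Irf1, Irf7, Irf9, Isg15, Mx2 and genes without overlap. Of other lists, receptors and ligands with a mean over 1 and up to 3 called genes in each direction are named, with exceptions marked. The fit was tested on simulated data with few changed genes, balanced in direction, and the same dispersion in both groups. In these livers most genes were called and IR libraries spread more, so that run does not show how the fit performs on them. One signalling gene of the pathway is not reported here. Gene positions and exonic lengths come from GENCODE vM21, promoter windows from RefSeq on GRCm38.p6. 50-base words shared between exons were counted as a measure of split reads.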

Additional observations from a re-analysis of the deposited data

Results flagged for a closer look

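Gaps and ranges in groups of 9 libraries were taken on log2(normalized count + 1). A value was marked when its gap to the nearest library, divided by the group's range, passed Dixon's 95% critical value for 9 values. The library values below are normalized counts, so ratios formed from them directly would differ. Over 74 groups (37 genes in IR and in sham livers) 4 were marked, where chance marks about 1 in 20. In IR livers Mx2 was 572 in IR5, and the next library, IR2, had 188 (ratio 0.509). Without IR5 the Mx2 log2 difference was 0.78, against 1.04 with it. In sham livers Stat2 was 603 in W4, with W6 next at 471, Irf9 was 469 in W9, with W8 next at 417, and Ifit2 was lowest in W2 at 112, with W1 next at 154. Leaving out that library gave log2 differences, IR minus sham, of 1.28 for Stat2, 0.36 for Irf9 and -1.76 for Ifit2. The source of these values was not tested.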

How the results depend on the processing

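Over 30 alternatives, 31 of the 37 genes kept their side of the threshold in each one that tested them. Of these, 27 showed no change of sign either. None of the 28 called genes reversed. In the alternatives that refitted all genes, 6 members were higher except under scaling to equal totals (7), and 20 to 24 were lower except with a mean of at least 50, which kept 32 members and called 18. Scaling to equal totals also gave 4 members with all IR libraries above all sham libraries and a median of -0.46. Leaving out 1 library in turn gave 6 to 6 higher, 22 to 24 lower, 2 to 3 all above, 8 to 11 all below and medians of -0.82 to -0.58. Over all 12686 genes those fits called 4757 to 4869 higher and 4701 to 4804 lower, and total scaling called 5951 and 3695. With a mean of at least 50, 3920 of 9855 genes were higher and 3808 lower. Non-overlap over all genes was counted in the main setting alone, at 19.9% above and 20.3% below. Oas1a, Irf1, Irgm1 and Oasl2 passed the threshold in at least 1 alternative, Oasl2 under total scaling with limma adjusted p = 0.0492, and sample quality weights gave Irf1 0.0347 and Oas1a 0.0372. The numbers in the headers did not pair the libraries: deviations of same-numbered libraries correlated at -0.098 to 0.125, 1 of 9 was over 0.1, and 0 libraries correlated best with their own number. A fit with the number as replicate block called 6 members higher and 22 lower, and 4821 and 4751 of all genes. The promoter shares under the longer core are given with the sequences. The 5 genes that changed sign had not passed the test: Irf1 (0.06), Irf7 (0.03), Cmpk2 (0.08) and Parp14 (0.14) under total scaling, and Dhx58 (-0.09) with 1 library left out. Depth limits the ligand genes, Ifnlr1, Tgtp1 and Gbp5; the mixed genotypes, the reading of W as sham and the unknown counting limit all values.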

Other observations

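Families named by symbol stem were counted over all genes tested, and the families and single genes named here were chosen after their values were seen. All 11 Gbp genes tested were lower in IR livers, with a median log2 difference of -1.75, where 37.7% of all genes tested were lower. Of those in the 2 lists of interferon-stimulated genes, Gbp10 passed the filter through its sham level alone. Gbp2b, which is in neither list, was not examined for this. The immunoproteasome subunits Psmb8, Psmb9 and Psmb10, which replace the standard catalytic subunits after interferon gamma, were lower in 3 of 3, at -0.78, -1.62 and -1.17. Psmb9 had normalized counts of 73.0, 163 and 286 in IR livers, against 301, 404 and 623 in sham livers, without overlap. The peptide transporter genes Tap1 and Tap2, also induced by interferon gamma, were higher, at 0.42 (SE 0.13, limma adjusted p = 0.00636) and 0.64 (SE 0.12, limma adjusted p = 6.14e-05). B2m, the light chain of MHC class I, was lower, at -1.66 (SE 0.11, limma adjusted p = 2.89e-11).

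Of 8 Oas genes tested 3 were higher, none was lower and 5 did not pass the test. Among 6 Slfn genes 2 were higher and 2 lower. Of these, Slfn4 passed the filter through its IR level alone and Slfn9 through its sham level alone. The Slfn counts thus follow in part from the filter. Among 4 Ifitm genes, which encode membrane proteins that hinder viral entry, 2 were higher and 1 lower. Ifitm2 was higher at 1.05 (SE 0.11, limma adjusted p = 3.15e-08) and Ifitm3 lower at -0.47 (SE 0.12, limma adjusted p = 0.00148). The RNA editing enzyme Adar had 230.1, 277 and 389 in IR livers, against 116, 130.5 and 159.6 in sham livers, without overlap, and a difference of 1.07 (SE 0.09, limma adjusted p = 2.39e-09). Of 12 Parp genes 5 were higher and 4 lower. Beside these family counts, 38.3% of all genes tested were called higher and 37.7% lower. The Parp counts and the higher count of the Oas genes lay near those shares.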
